A study of Mus musculus with 44 samples.

Results

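The 10 genes described here form much of the core of the mammalian circadian clock and its output: Arntl, Clock, Npas2, Per1, Per2, Per3, Nr1d1, Dbp, Hlf and Tef. They were listed by symbol and matched to 10 Ensembl identifiers, 1 each, out of the 29720 genes in each deposited table, and all 10 passed the filter on low counts in both tables, among 15317 genes tested in the first and 14370 in the second. The genes were selected on their CPM, read counts scaled to the same library total, in the 8 groups and on the contrasts between them. In every comparison between groups their values are therefore a description with no test, and tests are given for other clock genes, a list also drawn up with earlier results of these data known, and for comparisons of labelled batches, which the choice of the 10 genes did not use. The labels do not give the hour of day at which tissue was taken, and its part was not tested. A difference in that hour between groups or batches cannot be told apart from the differences described below.

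The clock is a loop of transcription. ARNTL (BMAL1) pairs with CLOCK or its paralog NPAS2 and activates genes through E-box sequences, among them the Per and Cry repressors that then shut the pair down. Another loop holds NR1D1 (REV-ERBα), which represses Arntl through ROR elements, and a further one the proteins DBP, HLF and TEF, which act at D-boxes and are opposed by NFIL3. In gut as in liver, Dbp, Per and Nr1d1 transcripts swing through the day roughly opposite to Arntl, and epithelial renewal, nutrient uptake and immune cell numbers follow the clock.

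The 44 libraries are poly-A RNA-seq of intestine from C57BL/6 mice in 2 models of inflammatory bowel disease. In T cell transfer, Rag1 null mice, which have no B or T cells of their own, received 400000 naive T cells and developed colitis within 8 to 12 weeks (inflamed), or 200000 bulk T cells (non-inflamed); their age is not given. In the other model, Tnf ΔARE/+ mice, whose Tnf transcript lacks an AU-rich element in all cells (inflamed), were set against Tnf +/+ littermates (non-inflamed), randomized at 16 weeks of age. Mice of both kinds received vehicle (methylcellulose, Tween20 and PBS) or 3 mg/kg of ATI-450, which inhibits the kinase MK2, with a second dose 16 hours later, and were killed 90 minutes after that; the series text gives the treatment as 24 hours. The transfer model has 5 non-inflamed vehicle, 6 inflamed vehicle, 6 non-inflamed ATI-450 and 6 inflamed ATI-450 libraries, and the Tnf ΔARE model 5, 5, 5 and 6. The labels name distal colon and ileum without saying which library is which, and do not say that each library is 1 mouse, so p-values measure only the spread between these libraries.

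Depth ran from 5953607 to 22347011 reads in the transfer libraries and from 5800923 to 13113931 reads in the Tnf ΔARE libraries. Colonocyte markers summed to between 2720 and 7050 CPM in the non-inflamed vehicle transfer libraries, and small intestinal enterocyte markers to between 11600 and 27600 CPM in the Tnf ΔARE counterparts. Epcam, an epithelial marker, was listed at 0 in every library of 3 of the 4 vehicle groups, while the summed epithelial list lay between 9900 and 19800 CPM in those groups. Inflamed vehicle replicate 3 of the transfer model stood apart, with an enterocyte sum of 30000 CPM. In 12 libraries, 6 in each model, long gene models read low against short ones, with a log2 difference between -1.3 and -0.42 in the transfer model and between -1.21 and -0.46 in the other, while the remaining libraries lay between -0.13 and 0.37. Of these 12, 4 were of batch 1, 2 of batch 4 and 6 of batch 2, and results that rest on them are given with and without them.

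Sequences of the promoters are shown because the loops described run through short elements that can be looked for by letter. RefSeq windows (GRCm38.p6, 250 bases before to 50 after each start) were held for 9 of the 10 genes; Per2 had no entry. An E-box (CACGTG), a D-box (TTATGTAA or TTACGTAA), a ROR element (AGGTCA or AGGTTA preceded by AANT) and a cAMP response element (TGACGTCA) were searched on both strands, and the matches below do not overlap one another. Each line gives 30 bases on the gene's strand, with the element in capitals.

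Arntl ROR element, chr7:113207485-113207514, + strand: ggagcggattggtcggaAAGTAGGTTAgtg
Arntl ROR element, chr7:113207528-113207557, + strand: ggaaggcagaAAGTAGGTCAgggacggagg
Per1 E-box, chr11:69098771-69098800, + strand: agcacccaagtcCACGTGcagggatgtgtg
Tef E-box, chr15:81802534-81802563, + strand: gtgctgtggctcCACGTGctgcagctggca
Tef E-box, chr15:81811264-81811293, + strand: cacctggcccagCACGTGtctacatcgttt
Per3 D-box, chr4:151044852-151044881, - strand: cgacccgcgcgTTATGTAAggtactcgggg
Per3 D-box, chr4:151044805-151044834, - strand: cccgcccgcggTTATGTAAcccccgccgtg
Hlf cAMP response element, chr11:90390908-90390937, - strand: ggtgcgggcccTGACGTCActcttgtcagg

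Of all 32851 promoter windows, 7.15% held the E-box, 1.06% the D-box, 0.365% the ROR element and 1.79% the cAMP response element. The ROR element was thus the rarest of the 4, and Arntl was the only gene of the 9 that held it. Per3 carried the D-box at 2 places and Tef the E-box in the windows of both of its starts.

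Among the activators, Arntl (chr7:113207465-113314126, GRCm38) encodes the partner that CLOCK and NPAS2 share. Non-inflamed vehicle libraries of the Tnf ΔARE model held 9.83, 6.43, 6.93, 13.1 and 14.2 CPM, and inflamed vehicle libraries 20.7, 17.8, 13.8, 15.4 and 25.5 CPM. Only the lowest inflamed library lay under the highest non-inflamed one, and the log2 fold change was 0.78 ± 0.25 (SE, 95% interval 0.26 to 1.31). In the transfer model the non-inflamed libraries ran from 8.59 to 33 CPM and the inflamed ones from 8.4 to 25.5 CPM, the 2 ranges lying almost on top of each other (-0.17 ± 0.47, and 0.49 without non-inflamed replicate 6). In bulk tissue a difference in cell numbers and a difference in RNA per cell cannot be told apart, here and below.

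Npas2, the paralog that can stand in for Clock, differed with inflammation by 0.32 ± 0.31 in the transfer model and by 0.26 ± 0.25 in the other. Inflamed vehicle replicate 3 of the transfer model, the library with enterocyte transcripts, held the highest transfer value at 48.1 CPM. Without it the transfer difference was 0.06, and without non-inflamed replicate 6 it was 0.70.

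Clock (chr5:76209868-76304792, - strand) has the longest exon sequence of the 10 genes, 13727 bases, and its level moved with the signal of long gene models in the transfer model. There the 6 libraries low in long gene models held between 4 and 42 CPM of Clock, and the 17 others between 55.1 and 88.4 CPM. No library of one kind lay in the range of the other. The same kinds of library overlapped in the Tnf ΔARE model, at 13.3 to 50.1 CPM and 25.1 to 56 CPM. The inflamed minus non-inflamed difference was -0.39 ± 0.51 and -0.42 ± 0.23 in the 2 models, and -0.20 and 0.01 without the 12 libraries.

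**Figure D1:**
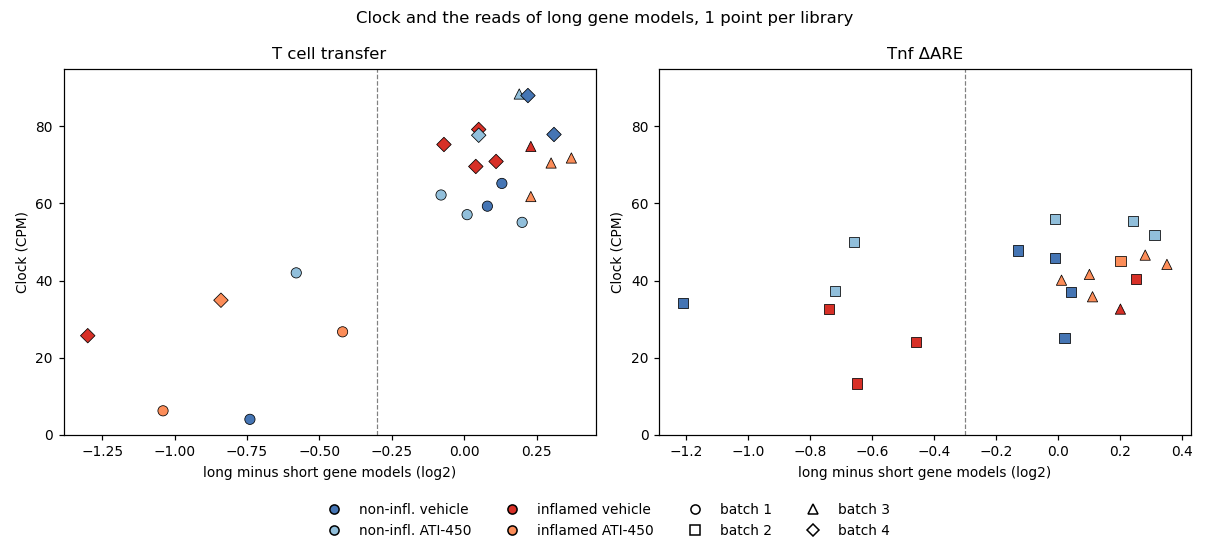
Clock in CPM (y axis) against the log2 difference between long (over 6000 bases of exon) and short (under 2000 bases) gene models (x axis), 1 point per library, colour by group and shape by labelled batch, dashed line at -0.3. The 6 transfer libraries left of the line hold 4 to 42 CPM and the 17 right of it 55.1 to 88.4 CPM.

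Among the repressors, Nr1d1 (chr11:98767932-98775333), the nuclear receptor that represses Arntl, had the widest spread between transfer groups. Non-inflamed vehicle libraries held 240, 116, 169, 102 and 81.5 CPM, and inflamed vehicle libraries from 9.84 to 117 CPM with a median of 25.6 CPM. Replicate 3 was the inflamed library at 117 CPM, and the other 5 held at most 56.4 CPM, below every non-inflamed library. The log2 fold change was -1.46 ± 0.53, and -2.09 without replicate 3. Non-inflamed Tnf ΔARE libraries held 96.9, 146, 146, 57.3 and 89.4 CPM and the inflamed ones 66.7, 40.7, 57.6, 87.8 and 93 CPM. These ranges overlapped, at a difference of -0.76 ± 0.29. Nr1d1 shares 1075 bases with Thra on the other strand, and whether the counting used strand is not given in the sources used here.

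Per2, a repressor that partners the cryptochromes, held 63.9, 49.6, 20.9, 28.6 and 48.7 CPM in non-inflamed vehicle transfer libraries against 9.04 to 32.5 CPM, median 17.4 CPM, in inflamed ones (-1.39 ± 0.51). Tnf ΔARE libraries held 16.8, 17.5, 66.6, 15.7 and 35.2 CPM against 16.2, 13.3, 10.3, 15 and 11.9 CPM of Per2 (-1.11 ± 0.36). One non-inflamed library, replicate 3 at 66.6 CPM, carried much of this, and without it the difference was -0.59. Per3 held 18.1, 16.2, 13, 11.5 and 18.8 CPM against 2.2 to 13.6 CPM, median 5.61 CPM, in the transfer model (-1.46 ± 0.50). The highest inflamed library was again replicate 3, and without it the groups did not overlap. Per3 in the Tnf ΔARE model rested on a mean of 54 reads per library and differed by -1.06 ± 0.42. Per3 lies within the span of Camta1 on the same strand, so reads of the 2 genes may be hard to separate. Per1, which also answers acutely to stress signals, differed by -0.58 ± 0.35 in the transfer model and by 0.15 ± 0.25 in the other, with overlapping libraries in both.

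The output genes Dbp, Hlf and Tef encode sister transcription factors and were lower in inflamed libraries of both models. Dbp (chr7:45705088-45710203) held 81.7, 40.5, 45, 9.06 and 20.5 CPM in non-inflamed vehicle transfer libraries and 3.12 to 21.7 CPM, median 5.46 CPM, in inflamed ones. All inflamed libraries but replicate 3, at 21.7 CPM, lay below the lowest non-inflamed library. The difference was -1.89 ± 0.73, the largest of the 10, and it was -2.47 without replicate 3, -1.37 without the libraries low in long gene models and -0.84 with the 2 vehicle groups fitted alone. Dbp in the Tnf ΔARE model held 15, 33.5, 26, 13 and 19.2 CPM against 4.67, 11.6, 3.58, 9.45 and 5.77 CPM. These libraries did not overlap (-1.67 ± 0.47). Without the libraries low in long gene models, which leaves inflamed replicates 1 and 5, the difference was -2.49. Dbp shares 737 bases with Sphk2 on the other strand.

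Hlf (chr11:90336536-90390895) held 22.2, 14, 6.86, 6.3 and 8.79 CPM in non-inflamed vehicle transfer libraries against 2.08 to 4.54 CPM, median 3.71 CPM, in inflamed ones. It was the only one of the 10 genes whose transfer vehicle groups did not overlap (-1.45 ± 0.53). In the Tnf ΔARE model it held 10.5, 16.2, 8.12, 2.72 and 8.63 CPM against 4.38, 3.27, 1.79, 2.68 and 4.16 CPM (-1.61 ± 0.44). Tef (chr15:81802421-81826863) held 66.3, 99.6, 129, 63.3 and 129 CPM against 27.8, 45, 49.2, 40.7 and 33.9 CPM in the Tnf ΔARE model, without overlap (-1.29 ± 0.29). In the transfer model Tef held 173, 134, 55.8, 48.8 and 96.7 CPM against 13.4 to 106 CPM, median 43.7 CPM (-1.19 ± 0.62), with replicate 3 at the top of the inflamed group, and the difference was -0.54 with the 2 groups fitted alone.

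Libraries low in long gene models were unevenly spread over the Tnf ΔARE vehicle groups, with 3 of 5 inflamed and 1 of 5 non-inflamed. Hlf held 1.79 to 3.27 CPM in the 6 such libraries of that model and 2.49 to 16.2 CPM, median 5.44 CPM, in the 15 others. Without them the inflamed vehicle group of that model was left with replicate 1, of batch 2, and replicate 5, of batch 3. On so few libraries the Tnf ΔARE inflammation difference was -1.49 for Hlf, -1.82 for Tef, -1.04 for Per2, -1.68 for Per3, -0.85 for Nr1d1 and 1.17 for Arntl. In the transfer model, where 1 library of each vehicle group was low, it was -1.27 for Hlf, -1.08 for Tef, -1.13 for Per2, -1.30 for Per3, -1.03 for Nr1d1 and 0.29 for Arntl.

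**Figure D2:**
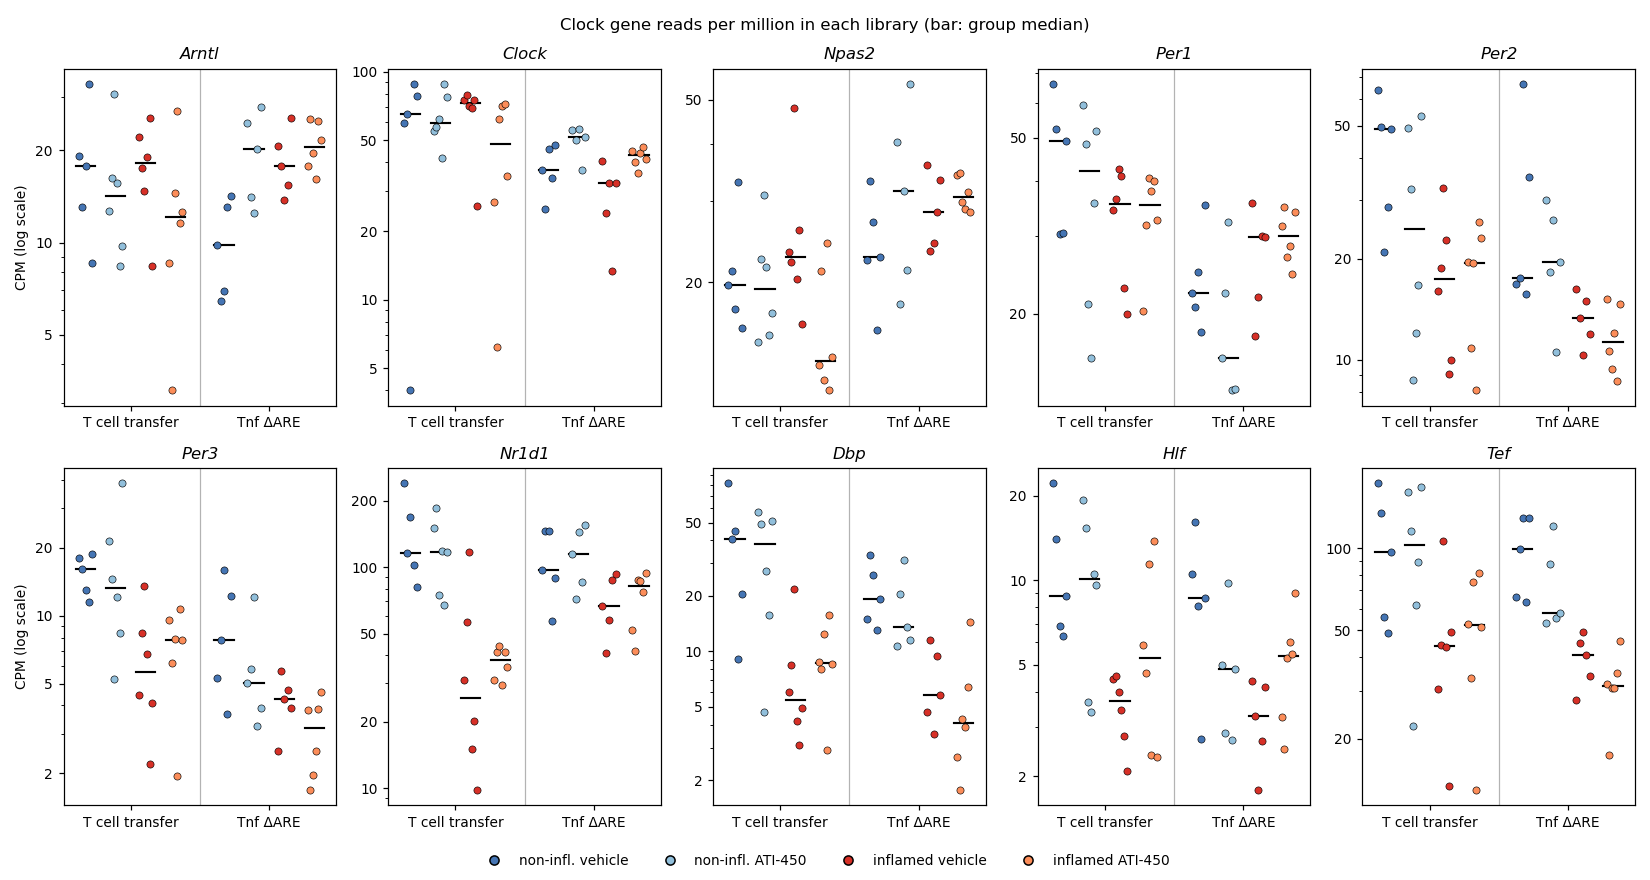
CPM (y axis, log scale) of each of the 10 genes in every library, by model and group, with bars at group medians. Dbp medians run from 40.5 CPM in non-inflamed vehicle to 5.46 CPM in inflamed vehicle transfer libraries, and from 19.2 to 5.77 CPM in the Tnf ΔARE model.

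Across all genes, edgeR's quasi-likelihood test with Benjamini-Hochberg adjustment called 14.2% in the transfer comparison and 15.9% in the Tnf ΔARE comparison at an adjusted p of 0.05. Of the 10 clock genes 0 were called in the transfer comparison, where 7.9% of genes were called higher and 6.28% lower. An unadjusted p under 0.05 in edgeR was given to 5 of them, against 30.6% of genes. DESeq2 called 5 of the 10, and 2692 of all 15317 genes. Among Tnf ΔARE libraries 1 was called higher, Arntl, against 8.66% of genes, and 4 lower, Per2, Dbp, Hlf and Tef, against 7.27%. There DESeq2 called 6 of the 10, and 2580 of all 14370 genes. Vehicle groups did not overlap for 1 gene, Hlf, in the transfer model (3.2% of all genes, lower) and for 2, Dbp and Tef, in the other (3.65%). Nothing is read from these counts, since the list was drawn up from the same comparisons. The median difference was -1.29 over the 10 genes and 0.05 over all genes in the transfer model, and -0.91 and -0.02 in the other.

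Several cell type lists moved with the same groups, some of them in 1 model only. Neutrophil markers summed to 1.02 to 51.3 CPM in non-inflamed and 23.3 to 1730 CPM in inflamed vehicle transfer libraries, and to 1.86 to 3.61 CPM and 76.9 to 258 CPM in the Tnf ΔARE model. Smooth muscle markers ran from 2590 to 9420 CPM and from 1560 to 3050 CPM in the transfer model, and from 1080 to 4220 CPM and 1270 to 2160 CPM in the other. Colonocyte markers ran from 2720 to 7050 CPM and from 270 to 2480 CPM in the transfer model, and enterocyte markers from 11600 to 27600 CPM and 7540 to 14700 CPM in the Tnf ΔARE model. T cell markers ran from 1.98 to 35.5 CPM and from 33.2 to 186 CPM in the transfer model, and adipocyte markers from 80.8 to 823 CPM and from 40.2 to 186 CPM in the other. Of the ranges above, only those of neutrophil markers in the Tnf ΔARE model and of colonocyte markers in the transfer model did not overlap. Ranges also overlapped for T cell markers in the Tnf ΔARE model (18.1 to 114 and 32.6 to 59.1 CPM) and colonocyte markers there (165 to 220 and 74.8 to 870 CPM). They also overlapped for adipocyte (3.2 to 61.3 and 3.17 to 111 CPM) and enterocyte markers (236 to 506 and 25.9 to 30000 CPM) in the transfer model. Pancreatic markers reached 27000 CPM in 1 inflamed vehicle transfer library and at most 3.6 CPM in non-inflamed ones. In inflamed ATI-450 transfer libraries they ran from 0.149 to 7790 CPM, with a median of 975 CPM. Their part in the ATI-450 differences of that group was not tested. No neutrophil, smooth muscle, colonocyte or enterocyte marker was at 0 in every library of a vehicle group, and their part in the differences was not tested. Within batch 4, the only one with both vehicle groups of the transfer model (5 inflamed and 2 non-inflamed), the difference of mean log2 CPM was -1.04 for Dbp, -1.66 for Nr1d1, -1.17 for Hlf and -0.07 for Arntl, with 9 of 10 genes lower. Within batch 2 of the Tnf ΔARE model (4 and 5) it was -1.59 for Dbp, -1.41 for Hlf, -1.22 for Tef and 0.79 for Arntl, with 7 of 10 lower.

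The other clock genes were tested. Of 21, 2 rose and 2 fell with inflammation in the transfer model. Nfil3, the repressor that opposes DBP at D-boxes, rose from 1.66, 2.32, 5.46, 5.02 and 6.38 CPM to between 14.2 and 27.8 CPM, with no overlap (2.32 ± 0.61, adjusted p = 0.016, edgeR). Csnk1e, a kinase that marks PER proteins for degradation, rose by 0.62 ± 0.14 (adjusted p = 0.00706, edgeR). Cipc, an inhibitor of CLOCK, fell by 1.16 (SE 0.30, adjusted p = 0.0156, edgeR) and Wee1, a cell cycle kinase under clock control, by 1.02 (SE 0.33, adjusted p = 0.0448, edgeR). Cry1 (0.28 ± 0.21), Cry2 (-1.18 ± 0.47), Nr1d2 (-0.81 ± 0.40) and Ciart (-1.16 ± 0.69) did not pass, at adjusted p from 0.0983 to 0.37 in edgeR. Without the libraries low in long gene models only Csnk1e passed, with Nfil3 at 2.33. Without inflamed replicate 3 the number of calls was 9, and without non-inflamed replicate 6 it was 1. With the 2 vehicle groups fitted alone it was 0, and 0 of all genes were called.

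In the Tnf ΔARE model 19 of the 21 were tested, 3 rose and 5 fell, of which 4 are described. Usp2, a deubiquitinase with a strong daily rhythm, fell from 47.6, 58.8, 66.4, 45.3 and 64 CPM to 15.1, 11.1, 19.1, 22.6 and 15.8 CPM (-1.77 ± 0.27, adjusted p = 0.000133, edgeR). Cipc fell by 1.10 (SE 0.17, adjusted p = 0.000162, edgeR). Nr1d2, the paralog of Nr1d1, fell from 81.1, 116, 113, 122 and 119 CPM to 42.6, 60.9, 67.1, 60.1 and 58 CPM (-0.95 ± 0.18, adjusted p = 0.000999, edgeR). Usp2, Cipc and Nr1d2 libraries did not overlap. Cry2, a partner of the PER proteins, fell by 1.07 (SE 0.31, adjusted p = 0.0225, edgeR). Bhlhe40, a repressor at E-boxes, rose from 55.3 to 78.8 CPM in non-inflamed to 105 to 184 CPM in inflamed libraries (1.02 ± 0.19, adjusted p = 0.000945, edgeR). The remaining calls, named after their values were seen, were Csnk1e (0.64 ± 0.20, adjusted p = 0.0295) and Bhlhe41 (1.18 ± 0.38, adjusted p = 0.0399, edgeR), both higher. Cry1 (-0.32 ± 0.20, adjusted p = 0.338) and Ciart (-1.24 ± 0.43, adjusted p = 0.0534) did not pass in edgeR. The number of calls was 4 without non-inflamed replicate 5 or without inflamed replicate 1, 5 without inflamed replicate 2, and 4 with the 2 groups fitted alone. Without the libraries low in long gene models it was 7.

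**Figure D3:**
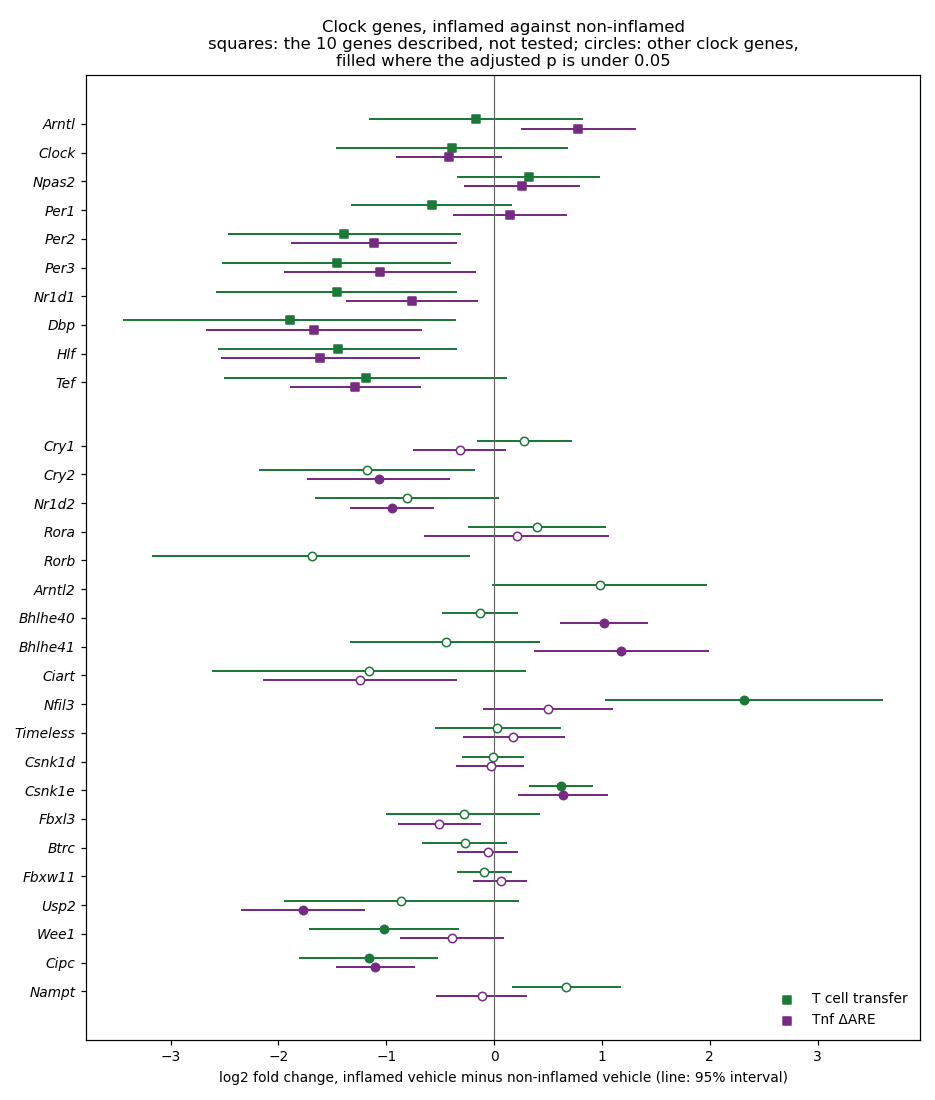
Log2 fold change (x axis), inflamed vehicle minus non-inflamed vehicle, with 95% intervals from edgeR, for the 10 genes described (squares, not tested) and the other clock genes but 1 (circles, filled where the adjusted p is under 0.05), in the transfer (green) and Tnf ΔARE (purple) models. Dbp, at -1.89 and -1.67, lies furthest left of the 10 in both models, and Arntl lies at -0.17 and 0.78.

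The difference between the models was tested for genes outside the list, in 1 fit over 44 libraries that called 5.27% of 15565 genes. The models also differ in gut region, genotype and kind of control, which cannot be told apart from a difference in inflammation. Bhlhe40 was the only other clock gene called, with a log2 difference of -1.16 ± 0.26, transfer minus Tnf ΔARE (adjusted p = 0.00561, edgeR). In the transfer model its libraries held 117 to 189 CPM inflamed and 122 to 225 CPM non-inflamed. For Nfil3 the difference was 1.81 ± 0.67 and did not pass (adjusted p = 0.109, edgeR).

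Glucocorticoids set peripheral clocks and drive some clock genes directly, so 8 genes known to respond to them were tested too. In the transfer model 1 of 8 passed, where 14.2% of all genes did. Klf9, also a clock output, fell by 0.87 (SE 0.22, adjusted p = 0.0119, edgeR). Among Tnf ΔARE mice 2 of 8 rose and 1 fell, where 15.9% of all genes passed. Ddit4, an inhibitor of mTORC1, rose by 1.43 ± 0.29 (adjusted p = 0.00154, edgeR) and Dusp1, a phosphatase of MAP kinases, by 0.97 ± 0.26 (adjusted p = 0.0148, edgeR). Sgk1, a kinase that promotes sodium uptake, fell by 1.28 there (SE 0.38, adjusted p = 0.0233, edgeR). Fkbp5 and Tsc22d3, also among the 8, passed in neither model, which does not show that they were unchanged. The part of glucocorticoids in the differences was not tested.

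Of the 10 genes and the other clock genes 0 were called between ATI-450 and vehicle in any of the 4 comparisons, in edgeR or DESeq2. Over all genes edgeR made 1 call in inflamed transfer libraries (0.00653% of genes), and 0 calls, or 0%, in the other 3 comparisons, while DESeq2 made 5 calls in inflamed transfer, 11 in non-inflamed transfer, 1 in inflamed Tnf ΔARE and 16 in non-inflamed Tnf ΔARE libraries. An unadjusted p under 0.05 in edgeR was given to 3.46%, 1.45%, 1.5% and 2.86% of all genes in that order. Of the 10 genes it was given to 0, 0, 0 and 2, the 2 being Arntl and Hlf. Nothing is read from this, since the list was drawn up from the same comparisons. Arntl in non-inflamed Tnf ΔARE mice was picked for its size relative to its error, so its interval describes the spread and tests nothing. It held 24.6, 14.1, 12.5, 20.2 and 27.8 CPM under ATI-450 against 9.83, 6.43, 6.93, 13.1 and 14.2 CPM under vehicle, a log2 difference of 0.98 ± 0.24 (95% interval 0.48 to 1.48). The 2 ranges overlapped between 12.5 and 14.2 CPM. The inflamed against non-inflamed difference of 0.78 uses the same 5 vehicle libraries, all of batch 2, so the 2 values are not independent. Hlf in those mice differed by -0.88 (95% interval -1.71 to -0.05). Among the other genes there, intervals were -0.06 to 0.97 for Npas2 and -1.39 to 0.23 for Per3.

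In inflamed mice the ATI-450 minus vehicle differences of Dbp were 0.11 (95% interval -1.37 to 1.59) in the transfer model and -0.65 (-2.07 to 0.76) in the other. The second interval holds the Dbp difference seen with inflammation in that model, and the value was -1.43 without vehicle replicate 5, the only vehicle library of batch 3, and 0.03 without ATI-450 replicate 1, the only ATI-450 library of batch 2. For Arntl they were -0.66 (-1.65 to 0.33) and -0.09 (-0.69 to 0.50), and for Nr1d1 -0.25 (-1.36 to 0.86) and -0.28 (-0.99 to 0.44). In non-inflamed transfer mice Dbp differed by -0.11 (-1.37 to 1.16) and Per2 by -0.53 (-1.46 to 0.40). Ordered by median, Dbp stood at 40.5, 38.2, 8.7 and 5.46 CPM in non-inflamed vehicle, non-inflamed ATI-450, inflamed ATI-450 and inflamed vehicle transfer libraries, and at 19.2, 13.5, 5.77 and 4.11 CPM in non-inflamed vehicle, non-inflamed ATI-450, inflamed vehicle and inflamed ATI-450 Tnf ΔARE libraries. Neighbours in both orders overlapped. These ATI-450 values are not given without the libraries low in long gene models, which were unevenly spread over the groups compared. Among inflamed transfer libraries they were ATI-450 replicates 1, 2 and 6 and vehicle replicate 6. Among inflamed Tnf ΔARE libraries they were vehicle replicates 2, 3 and 4, and no ATI-450 library. For Clock in inflamed transfer libraries the ATI-450 difference ran from -0.72 to 0.46 over the alternatives other than leaving out 1 library.

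Libraries of 1 group differed widely among themselves. In non-inflamed vehicle transfer mice, replicate 6 held the most Arntl, 33 CPM, and the least Dbp, 9.06 CPM, and replicate 1 held 19.2 CPM of Arntl and 81.7 CPM of Dbp. In non-inflamed ATI-450 transfer mice, replicate 3 combined 30.6 CPM of Arntl with the lowest Dbp (4.68 CPM), Per2 (8.68 CPM), Per3 (5.23 CPM) and Tef (22.3 CPM) of its group. Log2 Dbp minus log2 Arntl ran from -1.85 to 2.08 in non-inflamed vehicle and from -2.98 to 0.56 in inflamed vehicle transfer libraries, and from -0.01 to 2.35 and from -2.11 to -0.61 in the Tnf ΔARE model. The ranges overlapped in the transfer model and not in the other.

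**Figure D4:**
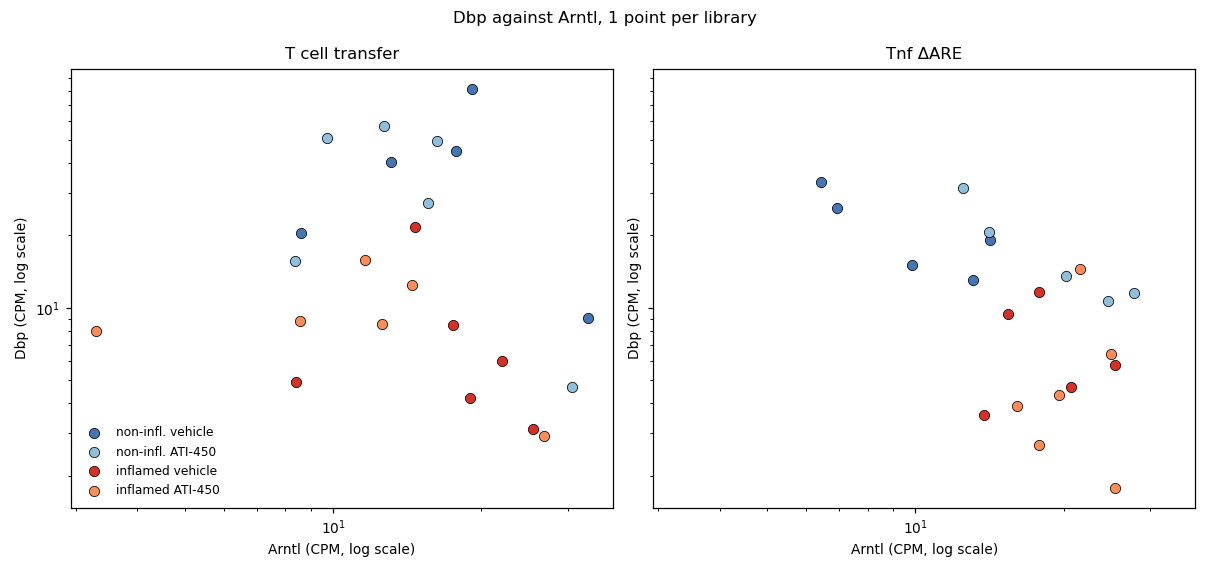
Dbp (y axis) against Arntl (x axis), both in CPM on log scales, 1 point per library and colour by group. Inflamed vehicle Tnf ΔARE libraries hold 3.58 to 11.6 CPM of Dbp at 13.8 to 25.5 CPM of Arntl, and non-inflamed vehicle ones 13 to 33.5 CPM at 6.43 to 14.2 CPM.

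Arntl was set against each of the other 9 genes on log2 CPM within each batch of at least 6 libraries, 36 relations in all. The libraries of a batch are of mixed groups, so the group differences that chose the genes enter these correlations, and they are given as a description. In batch 1 of the transfer model (9 libraries) all 9 were positive, in batch 4 (9 libraries) and in batch 3 of the Tnf ΔARE model (6 libraries) 6 of 9 were negative, and in batch 2 of the Tnf ΔARE model (15 libraries) 7 of 9. Pearson's r with Tef was -0.61 in batch 2 and -0.61 in batch 4, with Dbp -0.54 and -0.47, and with Per3 -0.63 and -0.37. Without the 2 libraries farthest from the Arntl median these moved in opposite ways: in batch 2 they were -0.44 for Tef, -0.29 for Dbp and -0.44 for Per3, and in batch 4 they were -0.86, -0.84 and -0.88. In batch 1 r with Dbp went from 0.27 to 0.82, and in batch 3 of the Tnf ΔARE model from -0.03 to -0.77.

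After group and batch were fitted, the genes whose residuals were most like those of Dbp were largely clock genes in the transfer model. Over 23 libraries and 13074 genes, the 10 highest correlations with Dbp held Nr1d2 (0.912), Tef (0.892), Ciart (0.885), Per3 (0.872), Per2 (0.824) and Cipc (0.804), with Nsun3, Kyat1, Fmo2 and Ngef. Nfil3 had the number 3 lowest correlation (-0.792). In the Tnf ΔARE model, over 21 libraries, Tef ranked 3 (0.749) and Ciart 6 (0.738) from the top, and Nfil3 6 from the bottom (-0.702). Tef, Ciart and Nfil3 were the genes shared by the lists of both models. The 10 genes most like Arntl held no clock gene in either model and shared no gene. The 10 lowest held 0 clock genes in the transfer model and 1, Usp2 (-0.601), in the Tnf ΔARE model. Outside these lists, Nfil3 ranked 16 from the top in the Tnf ΔARE model (0.622), where Ciart stood at -0.579. In the transfer model Nfil3 stood at 0.305 and Ciart at -0.488. These values describe libraries that differ in depth and tissue make-up, and carry no test.

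Labelled batches were not used to draw up the list, so the 10 genes were tested for them. Clock rose in batch 3 against batch 1 of the transfer model by 1.46 ± 0.50 (adjusted p = 0.0432, edgeR), from 4 to 65.2 CPM in 9 libraries to 61.8 to 88.4 CPM in 5. It was the only call among the 10, in a comparison that called 21.2% of all genes. Of the 9 batch 1 libraries 4 were low in long gene models, with 4 to 42 CPM of Clock, and the other 5 held 55.1 to 65.2 CPM. Without such libraries the difference was 0.56 (adjusted p = 0.0779, edgeR), and 6 genes in all were called in place of 3246. The call was also lost in 10 of the 23 fits with 1 library left out. In batch 4 against batch 1, edgeR called 0.242% of genes and gave 12% an unadjusted p under 0.05. In batch 3 against batch 2 of the Tnf ΔARE model it called 0.0139% and gave 4.68% an unadjusted p under 0.05. Over all genes DESeq2 called 286 and 5. In both comparisons 0 of the 10 were called in edgeR or DESeq2, and 0 had an unadjusted p under 0.05 in edgeR.

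The 2 deposited tables gave different pictures of 3 of the genes. Dividing each read estimate by the authors' normalized value gives a factor per gene and library, here scaled so that the median gene of a library is at 1. Among genes with a mean over 100 reads, the highest factor over the lowest was 1.28 at the median in the transfer model and 1.24 in the other, and it passed 10 in 0.675% and 0.438% of genes. For Per2 it was 18 and 14.3, for Hlf 16.2 and 19.8, and for Tef 11 and 8.67. For Arntl, Clock, Nr1d1 and Dbp it was at most 1.26. The Per2 factors of Tnf ΔARE vehicle libraries fell into 2 ranges, 0.41 to 1.24 (5 libraries) and 4.08 to 4.25 (5 libraries), so that non-inflamed replicate 5, with 322 reads, was given a normalized value of 81.6, and inflamed replicate 1, with 226 reads, one of 387. How the factor was made is not given in the sources used here.

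On the normalized values, with limma on log2(value + 1), inflammation differences were -0.54 for Hlf in the Tnf ΔARE model in place of -1.61, -0.75 for Per2 in place of -1.11, and -1.76 for Tef in place of -1.29. The ATI-450 difference of Per2 in non-inflamed Tnf ΔARE mice turned from -0.54 to 0.93, and in inflamed ones it went from 0.02 to 2.29. Dbp (-1.73) and Arntl (0.82) stayed near their read-based values there. Values of Per2, Hlf and Tef thus depend on which table is read, and those of Arntl, Clock, Nr1d1 and Dbp much less.

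**Figure D5:**
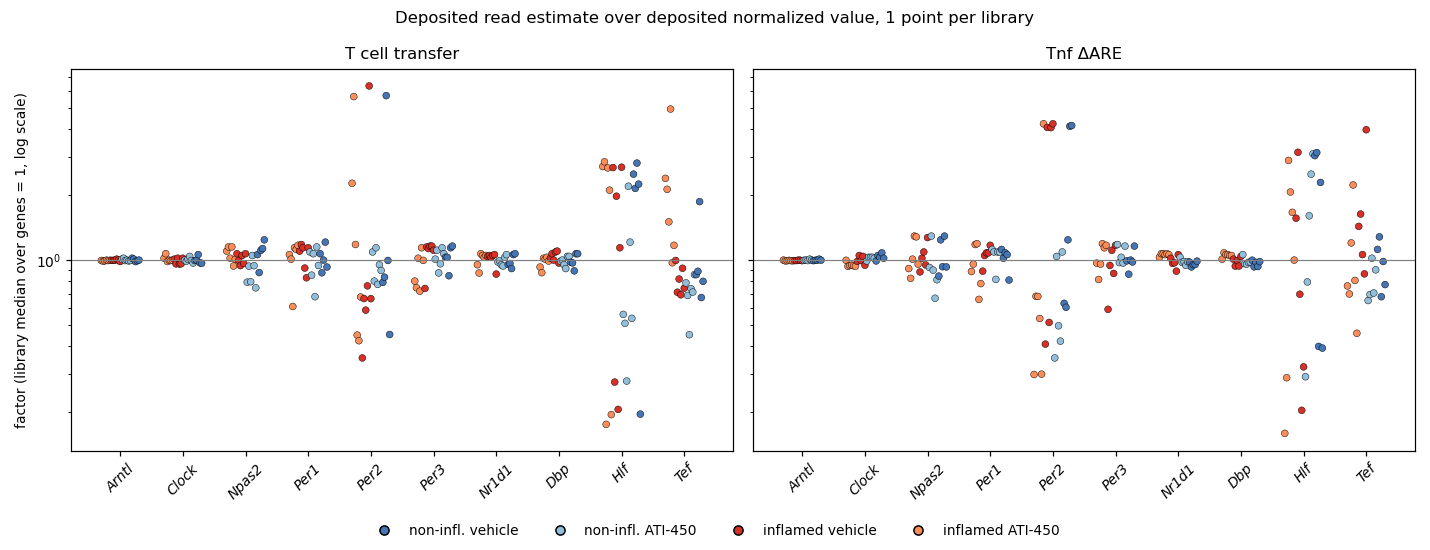
Deposited read estimate over deposited normalized value, scaled to the median gene of each library (y axis, log scale), for the 10 genes (x axis), 1 point per library and colour by group. Per2, Hlf and Tef spread up to 19.8-fold between libraries, and Arntl by at most 1.04-fold.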

How the data were processed

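Intestinal RNA-seq of 44 mouse libraries was analysed from 2 tables per model. Per the submitters' processing notes, Salmon 0.14.1 and DESeq2 were used with mm10/GRCm38; their settings are not stated. The deposited read tables hold whole-number estimated counts per gene, used as they are. The deposited normalized tables hold a signal made by the authors from those estimates with a factor per gene and library.

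Identifiers were matched to symbols for 29395 of 29720 genes. Counts were filtered (filterByExpr by group), scaled by TMM and fitted with edgeR 4.0.16 (glmQLFit, robust, glmQLFTest) in R 4.3.3, 1 fit per model over its 4 groups with batch as a term, Benjamini-Hochberg over all genes, threshold 0.05. The standard error is the absolute log2 fold change over the square root of F. The fit was tested on simulated counts with known changes. CPM uses TMM-scaled totals, and log2 CPM a prior count of 2. limma 3.58.1 was used on log2(normalized value + 1). Correlations of Arntl are given without the planned permutation tests, since the libraries of a batch are of mixed groups.

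Alternatives were DESeq2 1.42.0, RLE scaling, no filter, no batch term, a replicate block, 2 groups alone, the normalized values and each library left out. Removal of the libraries low in long gene models, and of inflamed vehicle replicate 3 with those holding pancreatic transcripts, was added after the data were seen. Named are all 10 members, the other clock and glucocorticoid-responsive genes past the threshold (at most the 6 with the smallest p per list and comparison), always Cry1, Cry2, Nr1d2 and Ciart, and the 10 nearest neighbours of Arntl and Dbp. The result of 1 other clock gene, though counted, is not reported here. Members and lists were chosen with earlier results of these data known. T cell, adipocyte, epithelial and pancreatic marker lists were also summed per library.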

Additional observations from a re-analysis of the deposited data

Results flagged for a closer look

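Among 80 sets of a gene and a group, 5 had a library far from the others by Dixon's criterion, which marks about 1 set in 20 by chance. Clock did so in 3 sets: 4 CPM in non-inflamed vehicle replicate 4 of the transfer model, where the next library held 59.3 CPM; 25.7 CPM in inflamed vehicle replicate 6 of that model, where the next held 69.6 CPM; and 37.2 CPM in non-inflamed ATI-450 replicate 4 of the Tnf ΔARE model, where the next held 50.1 CPM. All 3 libraries are among the 12 low in long gene models. Per1 stood at 20.3 CPM in inflamed ATI-450 replicate 1 of the transfer model, also one of the 12, with the next library at 31.7 CPM. Per3 stood at 1.95 CPM in inflamed ATI-450 replicate 4 of that model, which is not one of them and held the most Arntl of its group, 26.9 CPM; the next library held 6.15 CPM of Per3.

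The inflammation effect on Bhlhe40 differed between the models by a test of the difference itself (log2 difference -1.16, transfer minus Tnf ΔARE, adjusted p = 0.00561 in edgeR). The models also differ in gut region, genotype and kind of control, and the part of these was not tested.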

How the results depend on the processing

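Across the planned and added alternatives, 740 counts of genes stayed within 1.5 times their main value and 141 did not. For single genes 3106 values kept their call or, where no test was given, stayed within the replicate spread. Values uncalled in both fits were counted among these 3106 even where their direction changed. Of the rest 105 lost the call, 11 gained it and 28 moved by more than the spread. No called value changed sign, but uncalled ones did, such as Arntl for inflammation in the transfer model (-0.17, and 0.29 without the libraries low in long gene models) and, on the normalized values, Per2 for ATI-450 in non-inflamed Tnf ΔARE mice (-0.54, then 0.93). The number of genes called for inflammation in the transfer model, 2172, was 3399 without the batch term, 6130 with the replicate block, 0 with the 2 groups alone, 329 without the libraries low in long gene models and 1053 without inflamed vehicle replicate 3 and the libraries with pancreatic transcripts; the other clock genes called there, 4, were then 7, 8, 0, 1 and 1. The count for the Tnf ΔARE model, 2288, was 1275 with the 2 groups alone, and its other clock genes went from 8 to 4. The difference between the models went from 821 genes to 1430 without the batch term and 3395 with the replicate block, with 4 other clock genes called in either in place of 1. For ATI-450, inflamed transfer libraries went from 1 call to 3 with no filter, 0 with the 2 groups alone and with either set of libraries removed, and 5 in DESeq2; non-inflamed transfer libraries from 0 to 11 in DESeq2; inflamed Tnf ΔARE libraries from 0 to 1 without the libraries low in long gene models and in DESeq2; and non-inflamed ones from 0 to 16 in DESeq2. Batch 4 against batch 1 went from 37 to 3196 with the replicate block (1 of the 10 genes), 14 without the libraries low in long gene models, 286 in DESeq2 and 101 on the normalized values. Batch 3 against batch 1 went from 3246 to 6 without the libraries low in long gene models, and the 10 genes called in it from 1 to 0 there and with no filter, and to 2 with the replicate block. Batch 3 against batch 2 went from 2 to 0 with the replicate block and on the normalized values, 1 without the libraries low in long gene models and 5 in DESeq2. The removals of libraries were chosen after seeing the data, and the cause of these changes was not tested.

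With 1 library left out, inflammation called 685 (without non-inflamed replicate 6) to 3151 genes (without inflamed replicate 3) in the transfer model, with 1 to 9 other clock genes, and 1747 to 2697 genes in the Tnf ΔARE model, with 4 to 9. Calls ranged from 372 to 1179 for the difference between models (1 to 2 other clock genes), from 7 to 90 for batch 4 against 1, from 1311 to 4050 for batch 3 against 1 (0 to 1 of the 10 genes) and from 0 to 3 for batch 3 against 2. ATI-450 calls ranged from 0 to 1 in inflamed transfer, 0 to 2 in inflamed Tnf ΔARE and 0 to 1 in non-inflamed Tnf ΔARE libraries. The Clock call lost its significance in 10 of 23 such fits. Of the other clock genes called in the Tnf ΔARE model, Usp2, Cipc, Bhlhe40 and Nr1d2 kept their call under every alternative run. Libraries sharing a replicate number did not deviate together in every pair (correlations over 0.1 in 0 of 4 pairs for inflammation in the transfer model, 2 of 5 in the other, and at most 3 of 4, for ATI-450 in non-inflamed transfer mice), so they were taken to share only a number. Depth limits Per3 and Hlf most, at means of 54 and 56.8 reads per Tnf ΔARE library.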
